A study of Mus musculus with 6 samples.

Results

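The genes described here encode 10 basic leucine zipper (bZIP) transcription factors, taken as a named list of family members rather than by a threshold on their values: Fos, Fosb, Fosl2, Jun, Junb, Jund, Atf3, Jdp2, Maff and Mafg. All 10 were present among the 55471 genes of the count table, and 8 of them were among the 17981 genes with enough reads to be tested, Atf3 and Maff being too low. The tissue was the hippocampus of C57BL/6 mice (C57BL/6J in the study's methods) aged 3 to 6 months, profiled by total RNA sequencing in 3 libraries of CBP-ifKO mice and 3 of Control mice, and the question was how the loss of CBP alters transcript levels under basal conditions. CBP-ifKO mice carried floxed Crebbp, the gene of the lysine acetyltransferase CBP, together with the creERT2 recombinase under the Camk2a promoter, which is active in excitatory neurons of the forebrain, so that the other cells of the hippocampus kept their CBP. Controls were littermates without the recombinase according to the treatment protocol and the study's methods, although a second label of the same samples reads Camk2a_creERT2. Esr1, part of which is included in creERT2, was low in Controls, as given below. Whether Controls carried floxed Crebbp alleles was not given in the sources used here. Mice of both groups received tamoxifen in corn oil (20 mg/mL) by 5 intragastric administrations. Per the study's methods, each library came from pooled hippocampi of 3 females.

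AP-1 is a dimer of a Fos protein with a Jun protein, or of Jun proteins with each other, that binds the TRE motif TGACTCA. Related bZIP proteins share the dimerization surface: Atf3 and Jdp2 pair with Jun proteins and often repress AP-1 sites, and the small Maf proteins Maff and Mafg, which lack a transactivation domain, bind DNA as homodimers or with Fos-related and Nrf partners. In neurons several of these genes are immediate early genes, transcribed within minutes of synaptic activity through CREB and SRF bound to regulatory DNA of the gene. CBP is a coactivator of CREB and also binds Jun and Fos proteins. The CRE, the site of CREB, reads TGACGTCA in full and is often present in the shorter form TGACG.

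The sequences shown are those directly upstream of the RefSeq starts of Fos, Fosb, Fosl2, Jun and Junb. These are the 3 members that fell and 2 members of the same families that did not pass the test. The motif matches described next, where there are any, can be read in place. Each is the 120 bases before the RefSeq start site on the gene's strand in build GRCm38.p6, with matches to TGACG or TGACNTCA in capitals.
Fos, chr12:85473770-85473889, plus strand: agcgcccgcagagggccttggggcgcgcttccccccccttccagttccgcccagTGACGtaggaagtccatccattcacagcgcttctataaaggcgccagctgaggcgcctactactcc
Fosb, chr7:19310046-19310165, minus strand: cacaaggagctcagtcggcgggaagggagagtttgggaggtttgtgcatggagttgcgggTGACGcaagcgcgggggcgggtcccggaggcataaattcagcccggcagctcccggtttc
Fosl2, chr5:32136352-32136471, plus strand: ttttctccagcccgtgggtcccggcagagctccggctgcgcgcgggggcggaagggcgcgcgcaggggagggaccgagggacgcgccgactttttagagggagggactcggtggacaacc
Jun, chr4:95052223-95052342, minus strand: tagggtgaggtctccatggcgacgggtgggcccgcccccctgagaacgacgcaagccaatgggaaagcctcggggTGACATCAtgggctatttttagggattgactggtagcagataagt
Junb, chr8:84978749-84978868, minus strand: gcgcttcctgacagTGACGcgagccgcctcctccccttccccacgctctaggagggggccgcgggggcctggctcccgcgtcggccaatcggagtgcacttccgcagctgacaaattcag

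Motifs were searched on both strands in windows from 250 bases before to 50 bases after each RefSeq start, of which the 10 members had 14. The short site TGACG was present in 8 of the 14 windows, belonging to 7 of the 10 genes, at bases -66 to -62 and again at -129 to -125 in Fos, at -60 to -56 in Fosb and at -106 to -102 in Junb, and it was present in 20.8% of the 32851 RefSeq windows of the same length. Genes with several windows had more chances to hold a match. The full CRE TGACGTCA, which contains the short site, was found in 1 member, Maff, and in 1.79% of windows. Jun held TGACATCA at -45 to -38, a match to TGACNTCA, which was present in 8.83% of windows and also takes in the full CRE. The TRE TGACTCA (5.2% of windows) and the CArG box of SRF (1.63% of windows) were not found in any of the 14 windows. Fosl2, shown above, had no match to any of these motifs. The absence of a match says only that these letters are not in the window. RefSeq starts can also differ from the annotated start of the gene. The Fosl2 bases shown lie inside the gene, which starts at 32135801. The bases before the Jund start end at 70697738, ahead of the gene at 70698949. The searches for the short site and for TGACNTCA were added after the sequences had been read.

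The libraries held 10199008 to 14950257 counted reads. The targeted gene followed the labels: Crebbp was at 209, 156 and 208 CPM (reads of a gene relative to the library size, scaled by TMM) in Controls and at 109, 87.2 and 99.4 CPM in CBP-ifKOs, a log2 fold change of -0.96 (SE 0.10, adjusted p = 3.63e-05 in edgeR). Esr1, part of which is included in creERT2, was at 5.65 to 6.29 CPM in Controls and 63.6 to 69.4 CPM in CBP-ifKOs. Control replicate 2 and CBP-ifKO replicate 2 stood apart from the other libraries in immediate early genes and in GC-rich genes, as given below. Fold changes below are CBP-ifKO minus Control on the log2 scale, from edgeR's quasi-likelihood test with Benjamini-Hochberg adjustment over all genes tested and a threshold of 0.05. Each level is a TMM-scaled CPM value, with the mean ± SD taken over the 3 libraries of a group.

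Of the 8 members tested, 3 fell in CBP-ifKOs: Jun, Fosl2 and Fosb. None rose. Over all genes tested, edgeR called 6.39% in either direction, 4.99% lower and 1.4% higher in CBP-ifKOs. The 8 members had negative log2 fold changes, as had 50.7% of all genes tested, with a median of -0.44 against -0.003 over all genes. With libraries left out in turn the median of the members then tested ran from -0.68 (without Control replicate 1) to -0.32 (without CBP-ifKO replicate 2). The direction of 3 of them turned under other settings (Fos, Jund and Jdp2, given below). The groups did not overlap, with all 3 CBP-ifKO libraries below all 3 Control libraries, in the same 3 members that fell, compared with 13.9% of all genes tested. At an unadjusted p under 0.05 there were 4, Junb being the other, against 21.2% of all genes (13% lower). DESeq2, which called 7.27% of its genes (5.8% lower), called 2 members, Jun (adjusted p = 6.14e-06) and Fosl2 (adjusted p = 0.0162). Without a filter on low counts edgeR called 4, adding Junb, where 4.31% of genes were called (3.13% lower). In bulk tissue, fewer cells of a type and less RNA per cell cannot be told apart.

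**Figure D1:**
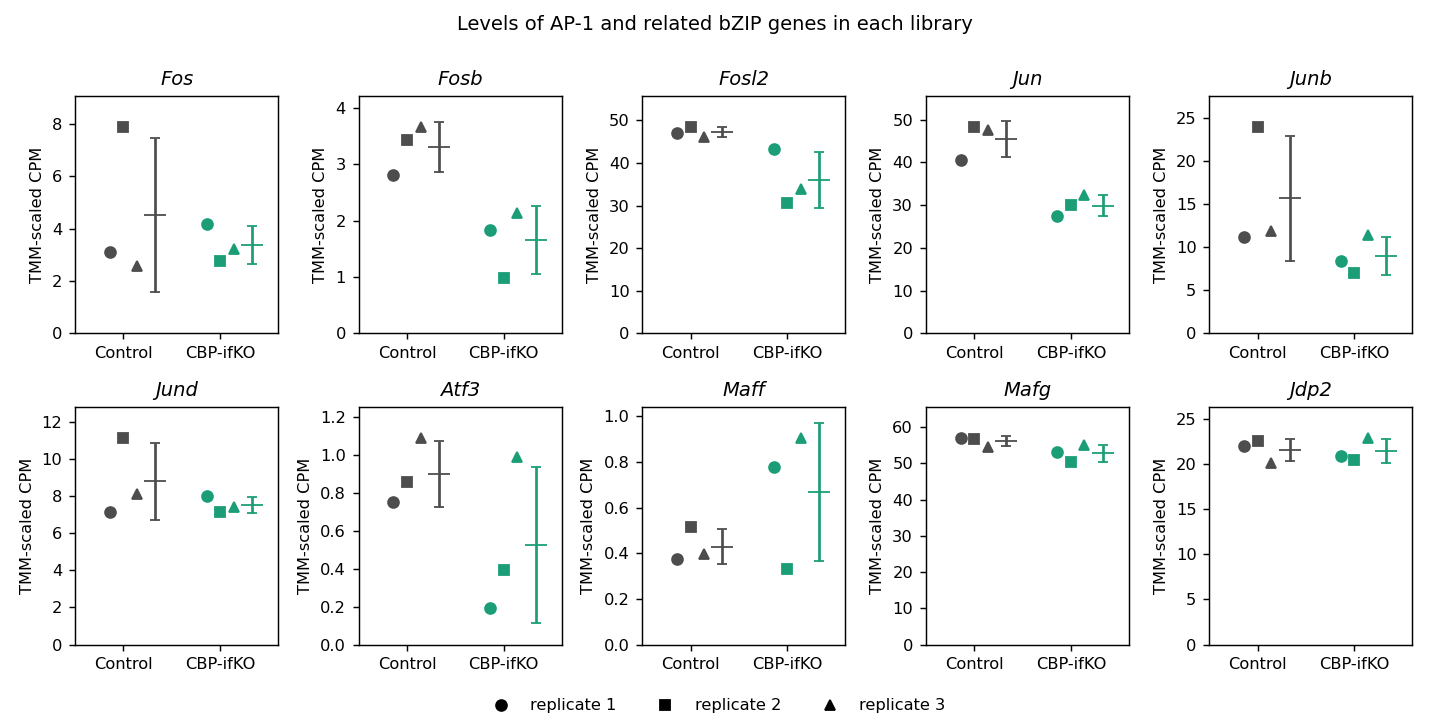
Level of each of the 10 members in the 6 libraries, in TMM-scaled CPM on a vertical axis that differs between panels. Points are libraries and bars are group means with SD. The groups are apart for Fosb, Fosl2 and Jun, and Control replicate 2 stands above the other libraries for Fos (7.90 CPM) and Junb (24.0 CPM).

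Among the Jun proteins, Jun, the c-Jun subunit activated by JNK phosphorylation, had the lowest adjusted p of the members. Jun was at 40.6, 48.4 and 47.5 CPM in Control replicates 1 to 3, whereas CBP-ifKO replicates 1 to 3 were at 27.4, 29.9 and 32.3 CPM. The highest CBP-ifKO library was below the lowest Control library. The mean was 45.5 ± 4.28 CPM in Controls and 29.9 ± 2.46 CPM in CBP-ifKOs, 65.7% of the Control level, with a log2 fold change of -0.60 (SE 0.090, 95% interval -0.79 to -0.41, adjusted p = 7.07e-04 in edgeR). It passed the threshold under all 17 alternative settings, with log2 fold changes from -0.68 to -0.53. The 3189 exon bases of Jun, on chromosome 4 (95049034 to 95052222, minus strand, GRCm38), share 7.28% with the antisense gene Junos. Junos was at 2.74 ± 0.60 CPM in Controls and 2.62 ± 0.40 CPM in CBP-ifKOs (log2 fold change -0.08, adjusted p = 0.892 in edgeR). Reads from the 2 strands may not have been told apart.

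Junb, an immediate early Jun protein that often counteracts c-Jun, was at 11.2, 24.0 and 11.8 CPM in Controls and at 8.43, 7.03 and 11.4 CPM in CBP-ifKOs. The groups overlapped, since CBP-ifKO replicate 3 lay between Control replicates 1 and 3. The log2 fold change was -0.83 (SE 0.24, 95% interval -1.34 to -0.32) and just missed the threshold (adjusted p = 0.0514 in edgeR). Control replicate 2 was far above the other libraries. Without it the log2 fold change was -0.36 (adjusted p = 0.219), whereas without Control replicate 1 or 3 it was -1.03 (adjusted p = 0.0140) or -0.99 (adjusted p = 0.0418). Junb also passed when no filter on low counts was applied (-0.82, SE 0.14, adjusted p = 2.67e-07 in edgeR). With robust dispersions in edgeR (-0.83, SE 0.39) the adjusted p was 0.321, and with DESeq2 (-0.80, SE 0.42) it was 0.273. The fold change was thus much the same in these fits, and the adjusted p followed the SE. Of its exon bases, 7.52% are shared with Prdx2 on the other strand, which was at 98.5 ± 3.98 CPM in Controls and 102 ± 6.91 CPM in CBP-ifKOs.

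Jund, the Jun protein with steady expression in most cells, was at 7.14, 11.2 and 8.13 CPM in Controls and at 8.04, 7.16 and 7.41 CPM in CBP-ifKOs. The groups overlapped, and Control replicate 2 was again the highest library. The log2 fold change of -0.24 (SE 0.17, 95% interval -0.59 to 0.11) did not pass the test (adjusted p = 0.448 in edgeR), was -0.01 without Control replicate 2, and turned to 0.13 when counts were corrected for GC content and length. The exons of Jund are 52.6% covered by the antisense gene Gm11175, which was listed with 0 reads in every library. How reads in the shared bases were assigned was not given in the sources used here.

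Among the Fos proteins, which cannot pair with themselves and need a Jun partner, Fosb gave the largest fold change. Fosb, whose splice form ΔFosB accumulates with repeated activity, was at 2.82, 3.44 and 3.67 CPM in Controls and at 1.84, 0.99 and 2.14 CPM in CBP-ifKOs. No CBP-ifKO library reached the lowest Control. The mean of 1.66 ± 0.60 CPM was 50.1% of the Control mean of 3.31 ± 0.44 CPM, with a log2 fold change of -1.03 (SE 0.28, 95% interval -1.62 to -0.45, adjusted p = 0.0349 in edgeR). These levels rested on 30 to 40 reads per Control library and 15 to 26 reads per CBP-ifKO library. Leaving out Control replicate 2 ended the call (adjusted p = 0.0578), and so did leaving out Control replicate 3 (0.1398), or of the CBP-ifKOs replicate 1 (0.0600) or 2 (0.187), with log2 fold changes of -1.27 to -0.71 over the 6 libraries left out in turn, and DESeq2 gave no adjusted p. Gene counts do not separate the splice forms.

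Fosl2, which encodes Fra-2, a Fos protein without a strong activation domain, was the member of its family with the most reads, 413 to 565 per library. It was at 47.1, 48.5 and 46.1 CPM in Controls and at 43.2, 30.6 and 34.0 CPM in CBP-ifKOs. The Control libraries lay close together, while CBP-ifKO replicate 1 was nearer to the Controls than to the other CBP-ifKO libraries. The mean fell from 47.3 ± 1.21 to 35.9 ± 6.55 CPM, 76.02% of the Control level, with a log2 fold change of -0.41 (SE 0.10, 95% interval -0.62 to -0.19, adjusted p = 0.0246 in edgeR). Leaving out Control replicate 3 (adjusted p = 0.0752), or of the CBP-ifKOs replicate 2 (0.155, log2 fold change -0.29) or 3 (0.133), ended the call.

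Fos, the classic marker of recent neuronal activity, was at 3.10, 7.90 and 2.58 CPM in Controls and at 4.17, 2.76 and 3.21 CPM in CBP-ifKOs. Apart from Control replicate 2, the CBP-ifKO libraries lay among or above the Controls. The log2 fold change was -0.47 (SE 0.33, 95% interval -1.16 to 0.22, adjusted p = 0.446 in edgeR) and turned to 0.23 without Control replicate 2. The interval, from 26 to 92 reads per library, includes the log2 fold change of Fosb (-1.03).

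**Figure D2:**
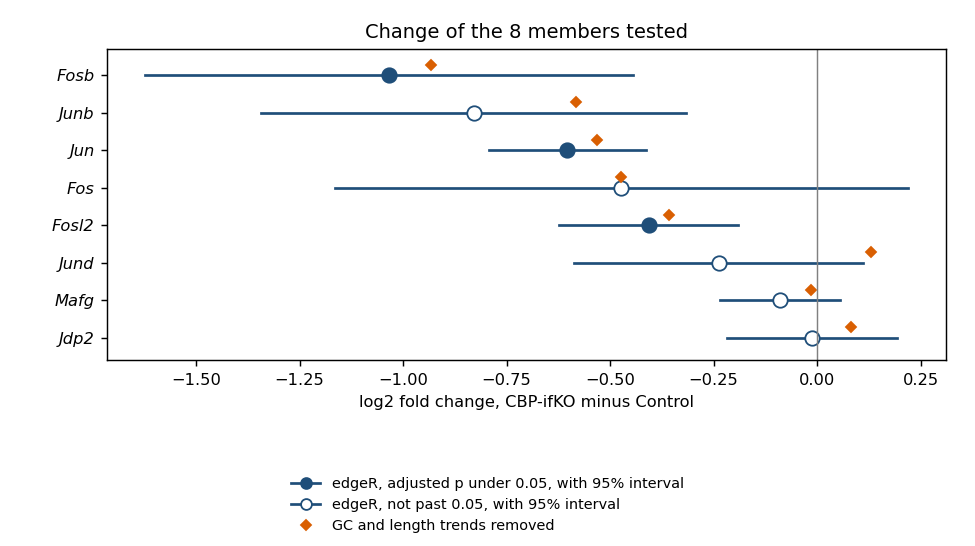
Log2 fold change (CBP-ifKO minus Control) of the 8 members tested, with the 95% interval of the edgeR fit, and diamonds for the fit with GC content and length corrected. Filled points passed the adjusted threshold of 0.05: Jun, Fosl2 and Fosb, from -1.03 to -0.41, with intervals to the left of 0. The interval of Junb (-1.34 to -0.32) also lies left of 0, although its adjusted p was 0.0514.

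Jdp2 and Atf3, which act mainly as repressors on AP-1 and CRE sites, differed in the reads behind them. Jdp2 was at 22.0, 22.5 and 20.1 CPM in Controls and at 20.8, 20.4 and 22.9 CPM in CBP-ifKOs. The groups overlapped throughout, and the log2 fold change was -0.01 (SE 0.097, 95% interval -0.22 to 0.19, adjusted p = 0.965 in edgeR), close enough to 0 that its sign turned under 8 of the 17 alternative settings, up to 0.08. Atf3, induced by stress and injury, had 8, 10 and 11 reads in Controls and 2, 6 and 12 in CBP-ifKOs, or 0.90 ± 0.17 and 0.53 ± 0.41 CPM. CBP-ifKO replicate 3 was within the Control range. In a fit without the filter on low counts Atf3 had a log2 fold change of -0.74 (SE 0.47, adjusted p = 0.551 in edgeR).

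Of the small Maf genes, Mafg was expressed and Maff barely so. Mafg was at 57.1, 56.8 and 54.6 CPM in Controls and at 53.1, 50.3 and 55.1 CPM in CBP-ifKOs. The groups overlapped and the log2 fold change was -0.09 (SE 0.069, 95% interval -0.24 to 0.06, adjusted p = 0.4985 in edgeR). Maff had 4 to 6 reads per Control library and 5 to 11 per CBP-ifKO library, 0.43 ± 0.08 and 0.67 ± 0.30 CPM, and was the only member with a higher mean in CBP-ifKOs. Without the filter its log2 fold change was 0.57 (SE 0.54, adjusted p = 0.723 in edgeR).

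**Figure D3:**
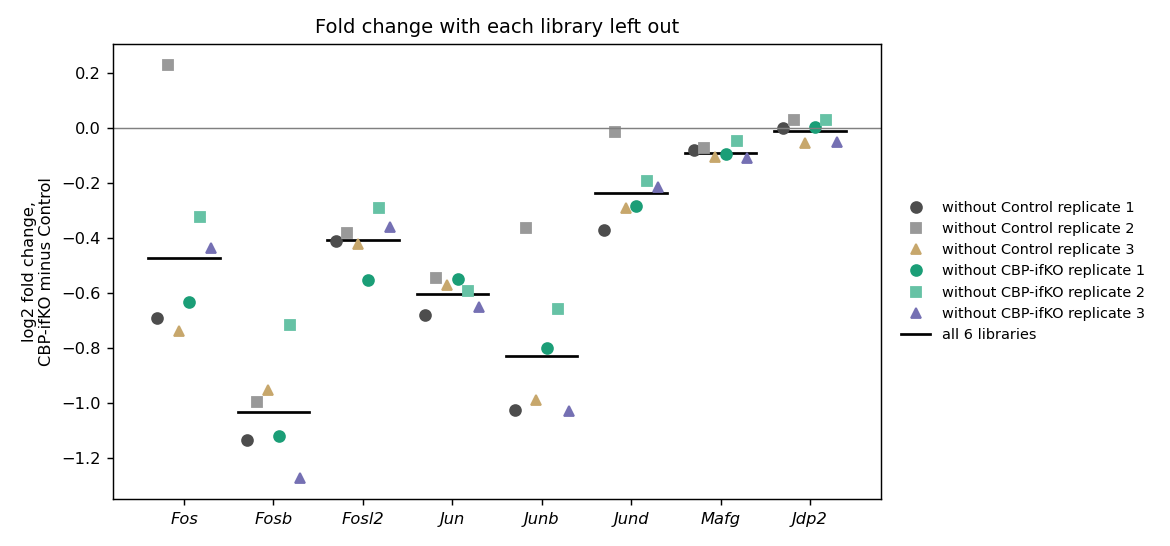
Log2 fold change (CBP-ifKO minus Control) of the 8 members tested with all libraries (black line) and with each of the 6 libraries left out in turn (points). Jun stays between -0.68 and -0.55, Fosb ranges from -1.27 to -0.71, Fos crosses 0 to 0.23 and Junb moves to -0.36 without Control replicate 2.

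Levels of different members were compared per kilobase of exon. In Controls the order ran from Jun (14.3 CPM per kb) through Jdp2 (10.025), Mafg (10.006), Junb (6.80), Jund (5.28), Fosl2 (4.88), Fos (1.92), Fosb (0.53) and Atf3 (0.42) to Maff (0.17). Only 4 steps in that order were larger than the spread over libraries, from Jun to Jdp2, Fosl2 to Fos, Fos to Fosb and Atf3 to Maff. The place of Jund is uncertain, since 52.6% of its exon bases are shared with Gm11175 and reads there may not have been counted. Jun was above 79.4% of the genes tested on this scale and Fosb above 4.93%. In CBP-ifKOs Jdp2 (9.96 CPM per kb), Mafg (9.41) and Jun (9.37) headed the order with overlapping libraries. Fosl2, at a CPM near that of Jun, stood lower on this scale, with 9680 exon bases.

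The 3 Jun genes summed to 21.9, 32.3 and 24.9 CPM per kb in Controls and 17.1, 16.7 and 19.5 CPM per kb in CBP-ifKOs, without overlap. Jund, which did not pass the test, made up 19.6%, 20.7% and 19.6% of this sum in Controls and 28.2%, 25.7% and 22.8% in CBP-ifKOs. Every CBP-ifKO library thus had a larger Jund share than every Control library, a difference that was not tested. Jund itself was not higher, at 5.28 ± 1.26 CPM per kb in Controls and 4.52 ± 0.27 CPM per kb in CBP-ifKOs. The larger share restates the smaller sum, of which Jun (14.3 and 9.37 CPM per kb) was the largest part. If reads in the bases that Jund shares with Gm11175 were not counted, its share and the sum are too low in both groups. The 3 Fos genes summed to 6.45 to 8.92 CPM per kb in Controls and 4.49 to 6.53 in CBP-ifKOs, with overlap, and Fosl2 made up 56.2% to 73.9% and 67.3% to 70.3% of it. The 2 small Maf genes summed to 10.2 ± 0.25 CPM per kb in Controls and 9.67 ± 0.54 CPM per kb in CBP-ifKOs.

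**Figure D4:**
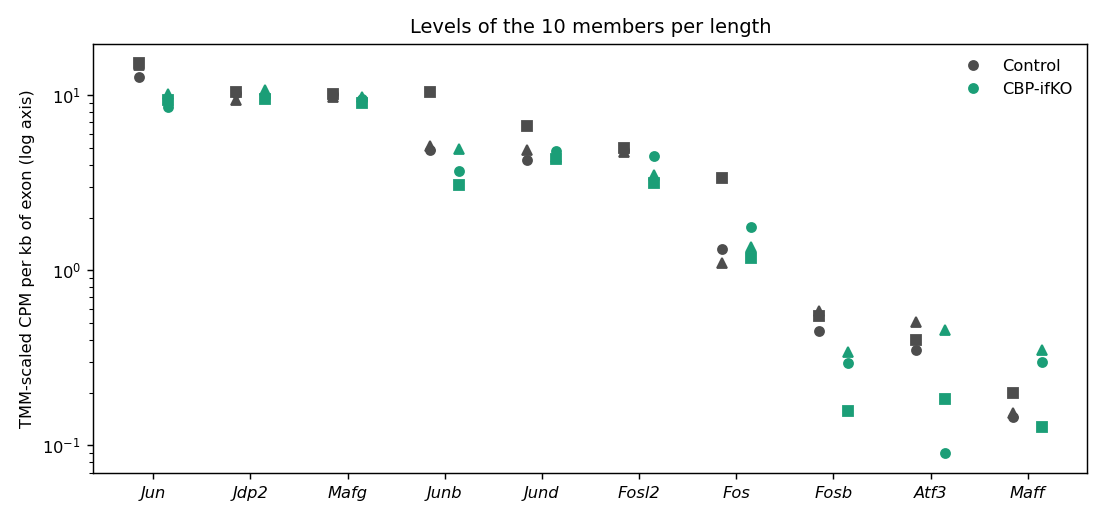
Level of the 10 members per kilobase of exon (TMM-scaled CPM per kb, logarithmic axis), ordered by the Control mean. Points are libraries, with circles, squares and triangles for replicates 1, 2 and 3. Jun stands highest in Controls (14.3) and near Jdp2 and Mafg in CBP-ifKOs, and Fosb, Atf3 and Maff are below 1 in every library.

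The 2 libraries that stood apart did so over several members. Control replicate 2 was the highest of the 6 libraries for Fos, Fosl2, Jun, Junb and Jund, and for 8 of 12 other immediate early genes. CBP-ifKO replicate 2 was the lowest for Fosb, Fosl2, Junb, Maff and Mafg, and for 7 of those 12. The same libraries differed in base composition: the 1796 most GC-rich genes (57.2% GC and above) deviated from the mean of all libraries by a median log2 of 0.20 in Control replicate 2 and -0.17 in CBP-ifKO replicate 2, against -0.06 to 0.08 in the other 4. The transcripts of Jund (67.1% GC), Junb (62.6%) and Maff (57.6%) lay in that GC range, whereas Jun (55.5%), Fosb (56.0%) and Fosl2 (53.1%) were below it, with more GC than 84.0%, 85.7% and 73.4% of the genes tested. In that GC range the median log2 fold change was -0.19 and edgeR called 16.2% of genes lower. With counts corrected for GC content and length, Jun (log2 fold change -0.53, adjusted p = 6.05e-04 in edgeR), Fosl2 (-0.36, 0.0271) and Fosb (-0.93, 0.0463) still passed, and Junb was at -0.58 (0.0964).

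Among 18 other genes of the AP-1 and bZIP families and their partners, 12 were tested. Of these, 2 fell and none rose, where edgeR called 4.99% of all genes lower and 1.4% higher. At that share of risers, a short list would often hold none. The median log2 fold change was -0.13, against -0.003 over all genes. Mafk, the remaining small Maf gene, was at 8.54, 7.82 and 8.23 CPM in Controls and at 5.43, 4.86 and 4.44 CPM in CBP-ifKOs. The groups were well apart, with a log2 fold change of -0.74 (SE 0.15, adjusted p = 0.00668 in edgeR), although without CBP-ifKO replicate 3 the adjusted p was 0.0522. Nfe2l1, a cap'n'collar partner of the small Maf proteins that regulates proteasome genes, fell by 0.22 on the log2 scale (SE 0.057, adjusted p = 0.0290). This small change held in 10 of 17 alternative settings and missed the threshold (adjusted p of 0.0688 to 0.169) with any library but Control replicate 2 left out. Fosl1, Batf, Batf2, Batf3, Mafa and Nfe2 had too few reads to be tested.

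Of 22 kinases and transcription factors that act on AP-1 genes, 4 fell and none rose, against 4.99% lower and 1.4% higher over all genes. The median log2 fold change was -0.12 (-0.003 over all genes). Mef2d, a factor that binds the Jun promoter, went from 85.9 ± 6.22 to 63.9 ± 6.38 CPM (log2 fold change -0.43, SE 0.080, adjusted p = 0.00377 in edgeR) and passed in all 17 alternative settings. Srf, the factor of the CArG box, went from 26.5 ± 3.73 to 19.6 ± 1.79 CPM (-0.44, SE 0.11, adjusted p = 0.0290), and its coactivator Mrtfa from 42.9 ± 2.72 to 32.4 ± 3.27 CPM (-0.41, SE 0.089, adjusted p = 0.0102). Both lost the call with GC and length corrected, Srf at -0.15 (0.3399) and Mrtfa at -0.25 (0.112). The same correction gave calls to the kinases Mapk10 (-0.20, 0.0172) and Map2k4 (-0.20, 0.0222). Mrtfa also lost it without CBP-ifKO replicate 2 (0.0773), and Srf without any library but Control replicate 1 (0.0558 to 0.159). Mapk8ip1, the JNK scaffold JIP1, had an adjusted p of 0.0496 and passed in 4 of 17 alternative settings, with any library but Control replicate 1 left out giving 0.0951 to 0.204. With GC and length corrected it was at -0.12 (0.257). Mapk3 (0.0502) gained the call under some other settings, such as without Control replicate 1 (0.0144). Without Control replicate 2, Mapk10 (0.0158), Elk4 (0.0376) and Crtc1 (0.00770) gained the call, at log2 fold changes of -0.37 to -0.22. Creb1, which encodes CREB, was at 113 ± 7.41 CPM in Controls and 117 ± 5.82 CPM in CBP-ifKOs (adjusted p = 0.684).

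Of 13 genes known as targets of AP-1, 11 were tested, 3 fell and none rose, against 4.99% lower and 1.4% higher over all genes. The median was -0.29 on the log2 scale (-0.003 over all genes), and the 3 passed in all 17 alternative settings. Ccnd1, the cell cycle regulator cyclin D1, was at 24.8, 30.5 and 27.8 CPM in Controls and at 19.3, 17.7 and 18.4 CPM in CBP-ifKOs (log2 fold change -0.59, SE 0.10, adjusted p = 0.00193 in edgeR). Pdyn, the prodynorphin gene, went from 8.40 ± 0.86 to 3.15 ± 0.18 CPM (-1.42, SE 0.17, adjusted p = 1.06e-04) and Penk, the proenkephalin gene, from 14.3 ± 1.68 to 5.93 ± 1.19 CPM (-1.26, SE 0.15, adjusted p = 1.48e-04). These 2 opioid peptide genes were among the genes the study picked partly on these same libraries, so their direction is no independent evidence. The same limit holds for the count of 3 and for the median of the list, which include them. Ccnd1 was the remaining target that fell. Both are also abundant in striatum. The 4 striatal markers summed to 19.1 to 26.5 CPM in Controls and 14.4 to 17.0 CPM in CBP-ifKOs, with 0 of the 3 tested called by edgeR and 2 at an unadjusted p under 0.05, and their part in the result was not tested. Gria2 (log2 fold change 0.13, adjusted p = 0.211) and Cdk5 (0.11, 0.471), ΔFosB targets, did not pass. For Gria2 all CBP-ifKO libraries were above all Controls, as for 11.8% of all genes tested, with an unadjusted p of 0.0406 in edgeR.

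Of the 12 other immediate early genes, all tested, 2 fell and none rose, against 4.99% lower and 1.4% higher over all genes. The median change on the log2 scale was -0.37 (-0.003 over all genes). Dusp1, a phosphatase of MAP kinases, went from 8.17 ± 0.93 to 5.28 ± 0.51 CPM (log2 fold change -0.64, SE 0.16, adjusted p = 0.0218 in edgeR). Btg2, an antiproliferative gene, went from 15.7 ± 3.01 to 10.9 ± 1.24 CPM (-0.52, SE 0.14, adjusted p = 0.0365). Both lost the call without Control replicate 2 and without replicate 1 or 2 of the CBP-ifKOs (adjusted p of 0.0589 to 0.135), and Btg2 also without CBP-ifKO replicate 3 (0.141). Arc (log2 fold change -0.32, adjusted p = 0.241), Npas4 (-0.85, 0.153) and Egr1 (-0.07, 0.835) did not pass. Egr3 (-0.41, adjusted p = 0.0645) passed without Control replicate 2 (0.0325) or CBP-ifKO replicate 1 (0.00494), and Npas4 without Control replicate 1 (0.0136). When low counts were not filtered out, 6 of the 12 passed, Arc and Npas4 among them, where 4.31% of all genes were called. With robust dispersions 2 of the 12 passed.

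**Figure D5:**
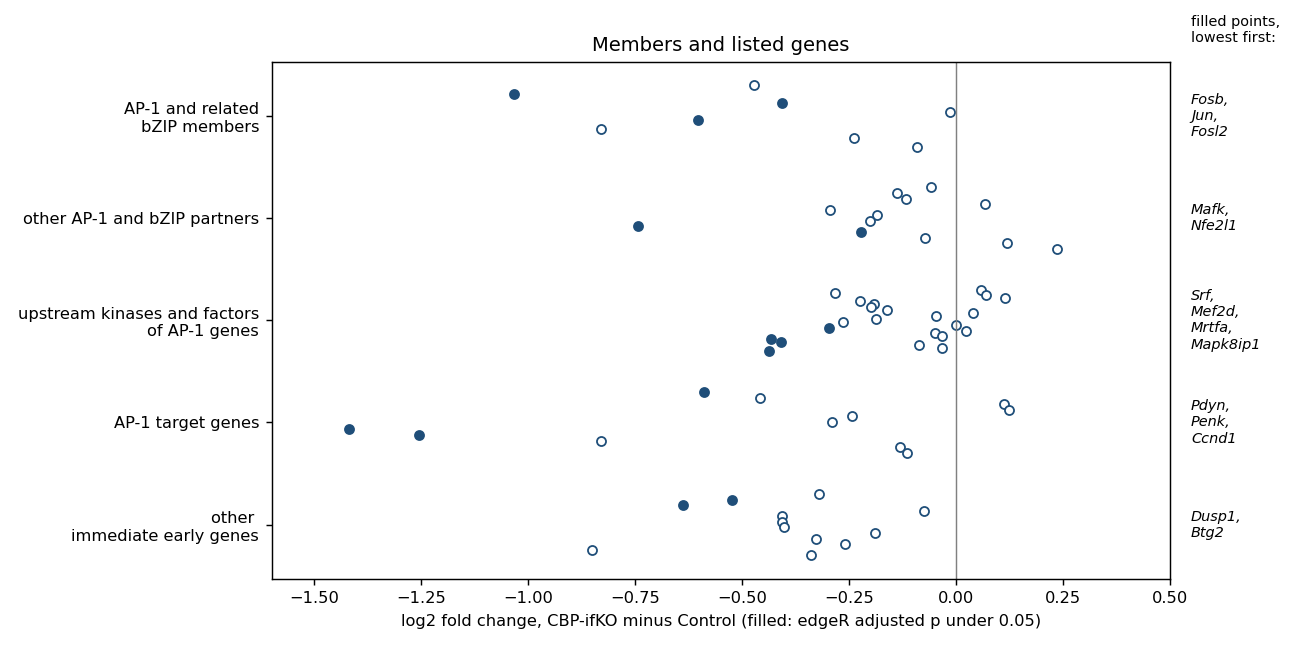
Log2 fold change (CBP-ifKO minus Control) of each tested gene among the members and 4 lists of related genes, 1 row per list and filled where the edgeR adjusted p was under 0.05. The filled points, 3 members and 11 other genes named at the right, lie left of 0.

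Among the genes whose library-by-library profile was closest to that of Fosb, by the root mean square difference of log2 levels after centring over the 6 libraries out of 12231 genes at 5 CPM or more, were Vstm2l (0.13), Mn1 (0.17), Camk1g (0.19) and Necab3 (0.21). They had log2 fold changes of -0.95 to -0.73, a fall that the choice by likeness to Fosb, itself lower in CBP-ifKOs, brings with it. The members were not picked by this distance. Their closest were Jun (0.36), Junb (0.39) and Fosl2 (0.40), and the most distant of those tested was Fos (0.65).

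Markers of glia and endothelium, cells of the hippocampus that kept their CBP, gave no calls. By edgeR, 0 of 6 microglial, 0 of 4 endothelial, 0 of 5 astrocytic and 0 of 4 oligodendrocyte markers were called. At an unadjusted p under 0.05 there were 2, 1, 1 and 1. Over all genes tested, edgeR called 6.39%, and 21.2% had an unadjusted p under 0.05. Lists of 4 to 6 genes are too short for an absence of calls to show that these cells were unchanged. Markers of inhibitory neurons were not listed. Of the 6 microglial markers, 3 (Tmem119, Csf1r and C1qa) had all CBP-ifKO libraries below all Controls, against 13.9% of all genes tested. Their log2 fold changes were -0.26, -0.08 and -0.22. The same held for 1 endothelial marker, Cldn5 (-0.42), 1 astrocytic marker, Slc1a3 (-0.13), and 0 oligodendrocyte markers. The summed levels of each type overlapped between groups, at 238 to 267 and 232 to 255 CPM for microglia, 94.5 to 103 and 80.1 to 114 CPM for endothelium, 1191 to 1247 and 1113 to 1212 CPM for astrocytes and 1750 to 2059 and 1762 to 1894 CPM for oligodendrocytes. Summed markers of hippocampal excitatory neurons were at 2719 to 3151 CPM in Controls and 2849 to 3238 CPM in CBP-ifKOs, and 1 of 7 was called, Wfs1 (log2 fold change -1.19, adjusted p = 8.34e-07 in edgeR), which marks the CA1 field. Of these 7, 5 were at an unadjusted p under 0.05, with Grik4 (-0.22) and Neurod6 (-0.13) lower and Neurod2 (0.20) and Prox1 (0.22) higher. The sum is mostly Camk2a (1939 ± 215 CPM in Controls and 2066 ± 130 CPM in CBP-ifKOs). Per the study, the creERT2 driver was made from a construct that holds the Camk2a promoter and the adjacent gene Arsi. Whether this driver adds reads to Camk2a in CBP-ifKOs was not tested. The 3 thalamic markers summed to 30.8 to 37.1 CPM in Controls and 23.6 to 25.4 CPM in CBP-ifKOs. Most of this sum is Calb2, at 22.9 ± 3.86 CPM in Controls and 16.1 ± 2.70 CPM in CBP-ifKOs. Calb2 was called (log2 fold change -0.49, adjusted p = 0.0382 in edgeR). Tcf7l2 (-0.24, adjusted p = 0.486) and Lef1 (-0.23, 0.629) overlapped between groups and did not pass. The share of adjacent tissue in the levels of the members was not tested. Summed choroid plexus markers were at 40.3 to 53.0 and 30.8 to 54.0 CPM, and summed blood markers at 46.3 to 86.7 and 51.2 to 166 CPM, with 0 of 3 and 0 of 4 called by edgeR and 1 and 0 at an unadjusted p under 0.05.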

How the data were processed

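Total RNA libraries of hippocampus (single-end, 50 bp) were trimmed with Trim Galore (version 0.6.4), checked with FastQC (0.11.8) and aligned with STAR (2.6.1) by the authors, who counted reads over exons of GRCm38 genes with Rsubread. The deposited values are raw counts per gene. Use of strand was not given in the sources used here. Of 55471 gene IDs, 55144 (99.41%) matched GENCODE on the same build, which gave symbols and positions. Groups came from the sample labels. The replicates were pools of different mice per the study's methods.

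Counts were tested with edgeR (version 4.0.16, R 4.3.3), by the quasi-likelihood F-test, TMM scaling, filterByExpr (minimum count 10, minimum total 15) and Benjamini-Hochberg adjustment. The SE is the absolute log2 fold change over √F. DESeq2, the tool of the study (1.30.1), was run here (1.42.0) as 1 of 17 alternatives with limma-voom (3.58.1), robust dispersions, RLE, upper-quartile and total scaling, other filters, a replicate block, GC and length offsets (natural splines with 5 degrees of freedom), and each library left out. The fit was tested on simulated data. The libraries held 10199008 to 14950257 counts, and the common coefficient of variation was 6.81%. Without GC and length offsets, same-numbered replicates deviated from their group means with correlations of 0.077, 0.037 and 0.0022. The numbers were not taken as pairs in the main fit. The members, the lists of related genes and the markers were chosen with earlier results of these data known. The text names every member, the listed genes past the threshold, some well-known listed genes that were chosen after their values were seen, and, of the 5 genes closest to Fosb, all but 1 that is not reported here. Promoter sequences are from RefSeq (GRCm38.p6), matched for 10 of 10 members.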

Additional observations from a re-analysis of the deposited data

How the results depend on the processing

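Jun kept its direction and its call under all 17 alternatives, as did Crebbp (log2 fold change -1.08 to -0.87). Of the members tested, 3 passed, 2 with DESeq2 (which called 7.27% of 13100 genes), 4 without a filter on low counts (4.31% of 35043 genes called) and 1 to 4 with libraries left out in turn, the 1 being Jun, without CBP-ifKO replicate 2. The sign turned for Fos (-0.74 to 0.23 over the libraries left out), for Jund (0.13 with GC and length offsets and 0.13 with these and the block) and for Jdp2 (0.00063 with upper-quartile scaling, 0.033 with library totals only, 0.082 with GC and length offsets, 0.083 with these and the block, and -0.055 to 0.029 over the libraries left out). The cause was not tested. Over all genes, 1149 passed (252 higher, 897 lower), 498 to 1326 with libraries left out (546 without Control replicate 3, and of the CBP-ifKOs 498 without replicate 2 and 526 without 3), and with library totals only 514 were higher and 667 lower. Of the other listed genes 11 passed, 17 without a filter and 5 to 13 with libraries left out. The all-gene median of the log2 fold changes was 0.043 at most, with library totals only.

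With the replicate numbers as a block, 1210 genes and 4 members passed, Junb being added (edgeR adjusted p = 0.0441), and with the block and the GC and length offsets 1862 genes and 4 members (Junb at -0.57, 0.0257). With the GC and length offsets and no block, 1138 genes passed. The correlations between same-numbered replicates were taken without these offsets. They do not settle whether same-numbered libraries were paired, which was not tested. Fosb, Fos, Atf3 and Maff rested on 2 to 92 reads per library, so counting error weighs on their values.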
